A study of Mus musculus with 42 samples.

Results

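The libraries described here are those made from mouse liver RNA with the NEBNext Ultra Directional kit (NEB), 6 of the 42 libraries of the series. Liver was taken from 3 untreated mice that carried Gfi1Cre/+;Rpl22HA/HA, so every library, input and IP, comes from animals with both alleles and no library comes from an animal without Cre. The mice were kept to P30 by the protocol, whereas the sample characteristics give P1, and no result here uses the age. Input is the RNA of the liver homogenate, IP is the RNA that an HA antibody pulled down, and each library was made from 4 ng of RNA with poly-A selection. Input here means the libraries labelled input replicates 1 and 2 and the library labelled IP replicate 3. IP means the libraries labelled IP replicates 1 and 2 and the library labelled input replicate 3. The fractions of replicate 3 are thus exchanged against their labels. The exchange follows the study's own table of detected features. Counts of changed genes are also given without replicate 3. Below, input 3 and IP 3 are these exchanged libraries.

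RiboTag tags a protein of the large ribosomal subunit, Rpl22, with HA in cells in which a Cre recombinase has been active, so that polysomes of those cells can be pulled down from a homogenate. Gfi1 is a zinc finger repressor of blood cell development, and Cre driven from its locus marks cells in which the locus is or was active together with their descendants. The liver holds hepatocytes, which make plasma proteins, bile acids and urea, Kupffer cells, which are its resident macrophages, sinusoidal endothelium, stellate cells, and cells of the blood. In bulk RNA, fewer cells of a type and less RNA per cell cannot be told apart.

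The total over all 47729 genes ranged from 15122257 to 27323849 counts in the 6 NEB libraries, so 3 counts, taken as the smallest level a library can show, are 0.110 to 0.198 CPM, the counts of a gene scaled to a common library total. The summed CPM of 21 hepatocyte markers was 168780.5, 182183 and 168085 in input and 32776, 39309.9 and 36616 in IP. The summed CPM of 18 Kupffer cell markers was 832, 775 and 673 in input and 23362, 37754 and 33003 in IP. On both sums input 3 lay with the other input libraries and IP 3 with the other IP libraries, against the labels of these 2 libraries, and the fractions did not overlap. Gfi1 itself had 0 reads in all 6 NEB libraries, a limit that covers counting error only, since genes at low levels were often missed in these libraries (below). The authors measured Gfi1 by real-time RT-PCR before sequencing and reported it enriched in IP over input. In the Tru70 libraries, made with the TruSeq kit from 70 ng of RNA, Gfi1 had 0 CPM in the 3 input libraries and 0.968, 0.537 and 0 CPM in the 3 IP libraries. Rpl22 did not pass the test between the NEB fractions, with 81.2 ± 15.6 CPM in input and 83.1 ± 16.1 CPM in IP (mean ± SD, n = 3 each, per plain library total; TMM-scaled log2 difference -0.41 ± 0.34 (SE), adjusted p = 0.618, edgeR). The reads of the tagged exon were not separated from those of the endogenous exon, so Rpl22 does not check the recombination. Gapdh, an enzyme of glycolysis with copies elsewhere in the genome, had 88, 182 and 252 reads in input and 1, 1 and 109 in IP, and was not called.

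IP was compared with input by edgeR's quasi-likelihood test on the deposited counts, with Benjamini-Hochberg adjustment, and a gene was called at an adjusted p under 0.05. Log2 differences below are IP minus input from this fit, which scales library totals by TMM factors that were higher in IP, by 0.46 on the log2 scale on average. CPM are per plain library total, so a log2 difference lies that much below the ratio of the CPM, and CPM are not scaled to gene length. Of 12099 genes tested, 704 rose in IP (5.82%) and 646 fell (5.34%). Each count of list members in NEB below is to be read beside these shares. With the fractions as labelled 0 genes were called, with 293 at an unadjusted p under 0.05. Without replicate 3, that is with 2 libraries a fraction, 215 rose and 216 fell, and 411 of these 431 genes were among the 1350 calls with the same direction. The fall in number was not particular to replicate 3, since 442 genes were called without replicate 2 and 704 without replicate 1. The p-values measure the spread between these libraries.

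The calls were then divided by whether the reads behind them were present in every library. A gene was said to drop out of a library when it had at most 3 reads there although the mean CPM of the other libraries of the fraction predicted at least 30. In none of the 1350 called genes did a library of the higher fraction drop out, and in none did the fractions overlap. Both follow in part from the filter and test that made the calls, so they are no separate support for the calls. In 517 of the genes that rose and 634 of those that fell, all 6 libraries had at least 10 reads, and these are called detected on both sides. Another 99 genes that rose and 8 that fell had at most 3 reads in each library of the lower fraction, and 88 and 4 were only partly covered there. The median log2 difference was 2.53 and -2.04 in genes detected on both sides, 9.94 and -9.93 in genes with the lower fraction near 0, and 5.67 and -5.10 in the others, for genes that rose and fell respectively. The median SE of the log2 difference was 0.42 and 0.33 in the genes detected on both sides and 1.96 and 2.32 in those near 0. A fitted fold change against a fraction near 0 depends on the prior count of the fit and is no measure of size. The class medians of such genes are no sizes either, and no fold between the fractions is given for a single such gene. Without replicate 3, 162 of 517 and 206 of 634 genes detected on both sides were still called in the same direction, but only 14 of 99 and 0 of 8 genes with the lower fraction near 0.

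**Figure D1:**
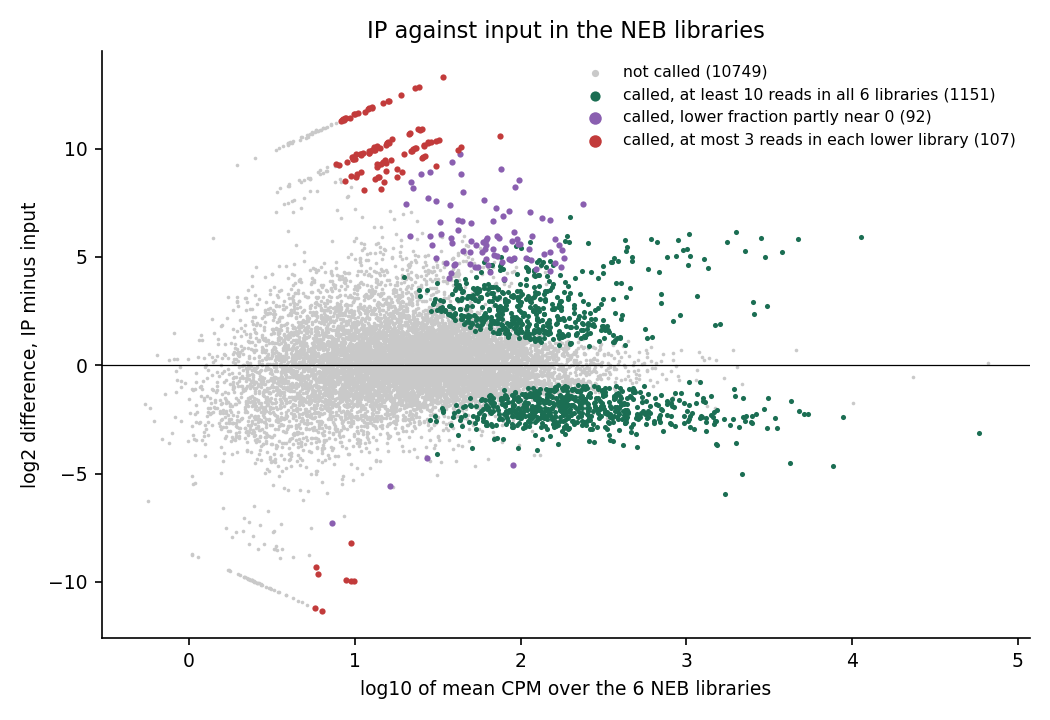
Log2 difference (IP minus input) of the 12099 tested genes against the log10 of their mean CPM over the 6 NEB libraries, one point a gene, coloured by class of call. The 1151 called genes with at least 10 reads in every library lie nearer to 0 than the 107 with at most 3 reads in each lower library, which form bands above 8.10 and below -8.21.

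Genes of Kupffer cells rose in IP, and most of them had enough reads in input to measure the change. Of 18 Kupffer cell markers, all tested, 17 rose and 0 fell, with a median log2 difference of 5.01, beside 5.82% of all tested genes that rose and a median of 0.02 over them. Of the 17, 14 rose without replicate 3. Clec4f, a lectin receptor of Kupffer cells (ENSMUSG00000014542, chromosome 6, 83644542 to 83656187, minus strand, GRCm38), had 153, 122 and 156 CPM in input and 5673, 8356 and 8131 CPM in IP. The lowest IP library was many times above the highest input library (log2 difference 5.21 ± 0.28 (SE), adjusted p = 8.39e-05; without replicate 3 5.23, adjusted p = 0.0237, edgeR). Cd5l, a protein that macrophages secrete (ENSMUSG00000015854, chromosome 3, 87357881 to 87371073, plus strand), had 84.6, 79.2 and 80.6 CPM in input and 3014, 5312 and 4927 CPM in IP, a log2 difference of 5.29 ± 0.29 (SE). C1qa, a chain of the complement component that starts the classical pathway, had 31.2, 71.1 and 45.3 CPM in input and 3384, 3704 and 3303 CPM in IP (log2 difference 5.69). Vsig4, a complement receptor, and Marco, a scavenger receptor, rose by 4.96 and 5.27 on the log2 scale. The iron exporter Slc40a1 rose by 3.18, from 175, 168 and 179 CPM to 1987, 2594 and 1902 CPM.

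For 3 Kupffer cell markers the call rested on input libraries that were partly empty. Timd4, a receptor for phosphatidylserine on apoptotic cells, had 15.6, 0.228 and 8.13 CPM in input against 172, 306 and 247 in IP, Cd163, the receptor for haptoglobin with haemoglobin, had 13.8, 10.7 and 0.0894 against 230.5, 424 and 422, and Cd68, an endosomal glycoprotein, had 4.30, 11.8 and 0.134 against 94.4, 403 and 313. The library with almost no reads was input 2 for Timd4 and input 3 for Cd163 and Cd68, while the Tru70 input libraries had 6.63, 8.52 and 10.8 CPM of Timd4 and 7.17, 7.51 and 8.41 CPM of Cd163. Without replicate 3, Cd163 stayed called (adjusted p = 0.0237) and Timd4 and Cd68 did not (adjusted p = 0.214 and 0.0785). Spic, a transcription factor of iron-recycling macrophages, was the marker that did not pass: 3.81, 0 and 0 CPM in input and 26.8, 18.04 and 13.1 CPM in IP, with adjusted p = 0.51.

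To show sequence next to the start of genes that rose and that fell, the 250 bases before the RefSeq start (GRCm38.p6) are printed for a pair of Kupffer cell markers (Clec4f and Cd5l) and a pair of hepatocyte markers (Alb and Ahsg), chosen after their values were seen, 5′ to 3′ on the strand of the gene. Capitals mark every match on either strand to GAGGAAG, the core that the factor PU.1 binds, GTTAAT, a half-site of HNF1, or CAAAGTCC, a site of HNF4. These motifs do not overlap one another in letters. A match is a description of letters and not a bound site.
Clec4f (chr6:83656117-83656366, minus strand): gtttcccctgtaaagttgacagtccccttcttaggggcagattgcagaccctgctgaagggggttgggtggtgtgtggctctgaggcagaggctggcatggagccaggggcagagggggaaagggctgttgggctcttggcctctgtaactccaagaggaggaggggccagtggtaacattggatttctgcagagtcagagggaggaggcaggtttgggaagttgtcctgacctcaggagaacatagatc
Cd5l (chr3:87357631-87357880, plus strand): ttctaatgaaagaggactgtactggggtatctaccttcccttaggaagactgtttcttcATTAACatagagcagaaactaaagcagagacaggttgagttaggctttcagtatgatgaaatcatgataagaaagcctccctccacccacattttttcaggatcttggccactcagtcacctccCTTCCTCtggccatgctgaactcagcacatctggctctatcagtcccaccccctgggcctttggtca
Alb (chr5:90460620-90460869, plus strand): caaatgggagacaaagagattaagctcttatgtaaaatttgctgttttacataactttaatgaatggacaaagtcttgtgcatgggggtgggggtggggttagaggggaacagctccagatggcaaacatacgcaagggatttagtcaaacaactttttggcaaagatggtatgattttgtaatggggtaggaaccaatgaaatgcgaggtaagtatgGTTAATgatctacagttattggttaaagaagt
Ahsg (chr16:22891765-22892014, plus strand): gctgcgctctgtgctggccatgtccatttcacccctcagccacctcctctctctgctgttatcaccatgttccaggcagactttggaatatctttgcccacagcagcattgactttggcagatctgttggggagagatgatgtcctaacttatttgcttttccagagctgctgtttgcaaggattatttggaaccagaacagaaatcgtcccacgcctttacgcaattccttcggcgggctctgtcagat

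These windows are shown because the genes moved in opposite directions with many reads in every library. In them Cd5l held 1 match to GAGGAAG, 67 bases before its RefSeq start, and 1 to GTTAAT, 191 bases before it. Alb held 1 match to GTTAAT, 32 bases before its RefSeq start. Clec4f and Ahsg held none of the 3 motifs in these letters. The gene positions given in this text are those of GENCODE, whose start is the same for Cd5l but differs for Clec4f, Alb and Ahsg. By those positions the Ahsg window lies inside the gene and the Clec4f window partly so. Of the 8962 tested genes with a window, 10.8% held GAGGAAG, against 15.6% of 553 genes that rose in IP and 49 of 488 that fell. GTTAAT was held by 4.23% of tested genes, 2.71% of those that rose and 11.9% of those that fell. For CAAAGTCC the shares were 1.42%, 1.45% and 4.10%. Over all 27025 windows of the table the shares of these motifs, in the same order, were 10.4%, 6.52% and 1.22%. No test was made of these shares.

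Genes of antigen presentation on MHC class II rose together: 7 of 7 tested genes rose (median log2 difference 5.69), 4 of them without replicate 3. H2-Ab1, the beta chain of the I-A molecule, had 19.6, 8.41 and 27.3 CPM in input and 973, 1469 and 1506 CPM in IP (log2 difference 5.69 ± 0.48 (SE), adjusted p = 0.000272, edgeR). H2-Aa, its alpha chain, had 8.83, 24.1 and 0.804 CPM in input, where the libraries differed by more than among the IP libraries, which had 747, 929 and 867 CPM. Ciita, the coactivator of these genes, had 10, 1 and 0 reads in input and 333, 1550 and 707 in IP and rose with the input partly near 0 (adjusted p = 0.0273; without replicate 3 adjusted p = 0.154, with the replicate number as a block 0.0548, edgeR).

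Of 12 genes of Fc receptors and phagocytosis, all tested, 9 rose and 0 fell (3 rose without replicate 3). Axl, a receptor kinase for the uptake of apoptotic cells, rose from 48.1, 42.6 and 20.6 CPM to 473, 903 and 775 CPM (log2 difference 3.79 ± 0.40 (SE)), and Mertk, of the same family, from 20.7, 21.6 and 8.45 CPM to 43.4, 247 and 148.4 CPM (2.62 ± 0.65). In both genes IP 1 was the lowest of the IP libraries, and Mertk was not called with the replicate number as a block (adjusted p = 0.0536, edgeR). Fcgr1, the high-affinity IgG receptor, rose by 5.62 on the log2 scale, and was not called without replicate 3 (adjusted p = 0.0917, edgeR). Among the largest rises of genes with at least 10 reads in all 6 libraries were also Lyz2, the lysozyme of macrophages, Cfp, the complement activator properdin, and the leukocyte actin regulators Coro1a and Hcls1, by 5.79, 5.83, 5.97 and 5.71 on the log2 scale. Itgam, an integrin of myeloid cells, had at most 2 reads in any input library and 9.52, 45.8 and 34.8 CPM in IP (adjusted p = 0.0107, and 0.0548 with the replicate number as a block, edgeR). Cd36, a scavenger receptor that endothelium and other cells also carry, had 24.3, 26.2 and 42.2 CPM in input and 47.1, 130.0 and 44.6 CPM in IP, and did not pass (adjusted p = 0.504).

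Of 15 genes of innate sensing, 14 were tested and 8 rose, 1 of them without replicate 3, beside 5.82% of all tested genes. Il1b, the cytokine interleukin 1 beta, had 0 reads in all 3 input libraries and 35.8, 59.3 and 19.3 CPM in IP, while the Tru70 input libraries had 2.48, 0.385 and 0.0312 CPM. Nlrp3, the sensor of an inflammasome, also had 0 reads in input and 4.96, 66.8 and 24.5 CPM in IP, with the IP libraries spread over more than a factor of 10, and was not called with the replicate number as a block (adjusted p = 0.0611, edgeR). Tlr2 and Tlr13, receptors of bacterial lipoprotein and of bacterial ribosomal RNA, had at most 2 reads in an input library. In IP, Tlr2 had 22.5, 32.8 and 38.7 CPM and Tlr13 20.6, 112 and 53.0 CPM.

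Genes of red blood cells had some of the largest differences among genes detected on both sides. Of 12 erythroid genes 8 were tested and 6 rose (5 without replicate 3). Hbb-bs, a beta chain of adult haemoglobin, had 306, 367 and 159 CPM in input and 26807, 25194 and 15245 CPM in IP (log2 difference 5.90 ± 0.47 (SE), adjusted p = 0.000243, edgeR). The beta genes Hbb-bs and Hbb-bt, like the alpha genes Hba-a1 and Hba-a2, are near-identical copies, so how reads were divided within each pair is uncertain. Alas2, which makes the first intermediate of heme in erythroid cells, had 57.8, 59.5 and 40.6 CPM in input and 918, 916 and 743 CPM in IP. Slc4a1, the anion exchanger of the red cell membrane, had 1 read in each input library and 835, 425 and 367 reads in IP, and was no longer called without replicate 3 (adjusted p = 0.0815, edgeR). The factors Klf1 and Gata1 had no reads in input and reads in 1 IP library each, and were not tested.

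Genes of neutrophils, lymphocytes and dendritic cells had few reads in input, and few of their calls remained without replicate 3. The summed CPM of the T and NK cell list was 9.82, 15.6 and 0.0894 in input and 303, 402 and 459.8 in IP, and that of the dendritic cell list 7.22, 11.03 and 0 and 149.1, 193 and 143, so the input libraries were uneven. Of the neutrophil list 4 of 12 genes were tested and 2 rose, of T and NK cells 9 of 13 were tested and 5 rose, of B and plasma cells 8 of 9 and 4 rose, and of dendritic cells 5 of 7 and 2 rose. None of these lists had a gene that fell, but a gene near 0 in input passes the filter only through IP and could not fall. Without replicate 3, 0, 0, 1 and 1 genes of these lists rose, and with the replicate number as a block 1, 0, 4 and 2. When only genes with at least 10 reads in all 6 libraries were tested, 0, 0, 1 and 0 rose. In Tru70, 7 of 11, 13 of 13, 9 of 9 and 6 of 7 tested genes of these lists rose, beside 18.1% of all genes tested there. Ighm, the constant region of IgM, had reads in every library: 2.38, 3.84 and 4.02 CPM in input and 122, 162 and 164 CPM in IP (log2 difference 4.99 ± 0.43 (SE); without replicate 3 5.08, adjusted p = 0.0246, edgeR). S100a9, a calcium-binding protein of neutrophils, had 1 read in all of input and 56.8, 38.9 and 48.1 CPM in IP. Pax5, the factor that holds B cell identity, had 2, 0 and 0 reads in input and 903, 1150 and 274 reads in IP. Klrb1c, the NK cell receptor NK1.1, had 0 reads in input and 29.7, 9.62 and 11.9 CPM in IP, and Klrb1c and Cd3d were not called with the replicate number as a block (adjusted p = 0.176 and 0.105, edgeR). Among T and NK genes, Cd3e (1, 630 and 451 reads in the IP libraries) and Gzmb (0, 1468 and 877 reads) dropped out of IP 1 and were removed by the filter on low counts before testing, whereas Cd3d (344, 280 and 526 reads) was tested and rose. Of 5 platelet and megakaryocyte genes 2 were tested and 0 were called (1 with the replicate number as a block), with 4 of 5 rising in Tru70.

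**Figure D2:**
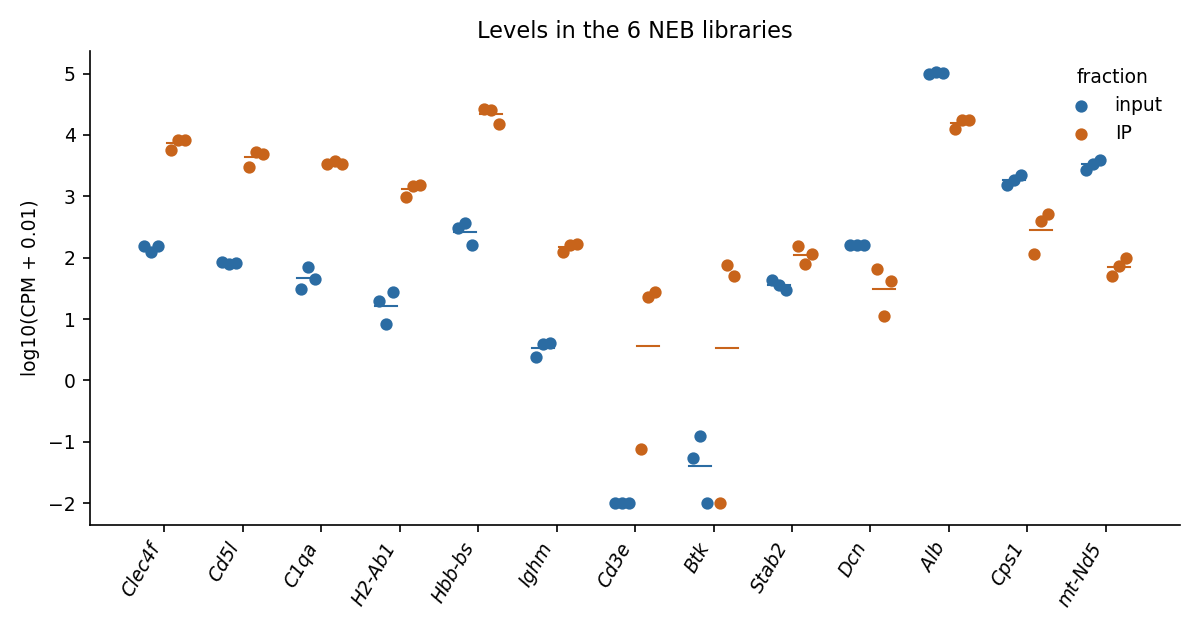
CPM of 13 genes in each NEB library on the scale log10(CPM + 0.01), with input in blue, IP in orange, replicates 1 to 3 from left to right and a line at the mean of the log values. Clec4f to Ighm lie higher in all IP libraries, Cd3e and Btk have an IP library at or near 0 reads, and Alb, Cps1 and mt-Nd5 lie lower in all IP libraries.

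Among transcription factors of blood lineages 9 of 12 were tested, 7 rose and 0 fell, but 2 rose without replicate 3. Spi1, which encodes PU.1, had 10.1, 5.29 and 0.0894 CPM in input and 251, 371 and 380.2 CPM in IP (log2 difference 5.53 ± 1.16 (SE)). Nr1h3 (LXR alpha), Id3 and Zeb2, all factors of Kupffer cell identity, rose by 1.04, 1.56 and 2.28 on the log2 scale, and were not called without replicate 3 (adjusted p = 0.129, 0.0941 and 0.126, edgeR), nor was Nr1h3 with the replicate number as a block (0.0688). Runx1 had 0, 2 and 0 reads in input and 266, 1413 and 368 in IP. Gata2 had 42, 169 and 132 reads in input and 0 in IP, a difference that was not called (adjusted p = 0.127). Cebpa, which hepatocytes and myeloid cells both use, had 526, 304 and 347 CPM in input and 337, 310.1 and 422 CPM in IP.

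Of 15 lysosome genes 10 rose and 0 fell, 8 rising without replicate 3, beside 5.82% of all tested genes that rose and 5.34% that fell. Psap, the precursor of the saposins, had 607, 598 and 596 CPM in input and 4945, 6424 and 5263 CPM in IP (log2 difference 2.75 ± 0.23 (SE)). Ctss, the cathepsin that macrophages use to process antigen, rose by 6.05, whereas Ctsl, another cathepsin, had 669, 794 and 746 CPM in input and 331, 627 and 639.6 CPM in IP and did not pass (adjusted p = 0.0524), but fell with the replicate number as a block (0.0294, edgeR). The iron and heme list was divided, with 2 genes up and 6 down of 12 tested. The genes that rose were Slc40a1 and Hmox1, the heme oxygenase, with 27.3, 8.41 and 23.5 CPM of Hmox1 in input and 594, 1012 and 659.5 CPM in IP. Those that fell included the hepatocyte hormone Hamp (286, 369 and 284 against 161, 151 and 165 CPM) and the heme carrier Hpx (3148, 2866 and 3132 against 569, 567 and 701 CPM). Of 14 interferon-stimulated genes 4 rose (1 without replicate 3), among them Rsad2 (15.4, 7.19 and 20.2 against 366, 333 and 144 CPM) and Irf7. Of 15 cell division genes 0 were called. Mki67, for example, had 11.1, 24.4 and 5.50 CPM in input and 42.8, 83.9 and 103 CPM in IP (adjusted p = 0.101, edgeR). In Tru70, 7 of the 15 rose, beside 18.1% of all genes tested there. Of 79 cytosolic ribosomal protein genes 70 were tested and 0 were called, with a median of 0.01 and a range from -3.75 to 3.46.

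Hepatocyte genes fell in IP and kept measurable reads in every library. Of 21 hepatocyte markers, all tested, 16 fell and 0 rose (median log2 difference -2.27), beside 5.34% of all tested genes that fell. Without replicate 3, 12 fell, and without replicate 2, 7 fell. Alb, serum albumin (ENSMUSG00000029368, chromosome 5, 90460897 to 90476602, plus strand), had 96469, 104760.4 and 102515 CPM in input and 12477, 17702 and 17810.2 CPM in IP (log2 difference -3.13 ± 0.30 (SE), adjusted p = 0.000419; without replicate 3 -3.17, adjusted p = 0.0379, edgeR). Ahsg, the plasma protein fetuin A (ENSMUSG00000022868, chromosome 16, 22891277 to 22899449, plus strand), had 15433, 15176 and 11339 CPM in input against 2909.7, 5217 and 3029 CPM in IP. Fgg, the gamma chain of fibrinogen, had 3426, 3604 and 3428 CPM in input against 537, 771 and 670.5 CPM in IP. For each of these the 3 IP libraries were alike to within a factor of 2 and lay below all input libraries. Hnf4a, the hepatocyte transcription factor, had 527, 508 and 594 CPM in input and 202, 204 and 323 CPM in IP, a smaller difference of -1.63 ± 0.25 (SE). The exceptions included G6pc, glucose-6-phosphatase, with 379, 703 and 486 CPM in input and 368, 1071 and 937 CPM in IP (adjusted p = 0.932), and Pck1, phosphoenolpyruvate carboxykinase, with 743, 2934 and 2128 CPM in input and 281, 1204 and 734 CPM in IP (adjusted p = 0.0761). In each replicate IP was the lower fraction of Pck1, and the gene fell with the replicate number as a block (adjusted p = 0.00113, edgeR).

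Other functions of hepatocytes followed the markers, though 2 genes each of the urea cycle and gluconeogenesis lists are themselves among the hepatocyte markers. Over all tested genes 5.34% fell. Of 19 genes of complement and coagulation 16 fell (11 without replicate 3), of 7 urea cycle genes 5 fell (1), of 10 genes of bile acid synthesis and transport 8 fell (3), of 10 genes of fatty acid oxidation 7 fell (3), and of 6 genes of gluconeogenesis 2 fell (2), with 0 rising in any of these lists. Without replicate 2 the numbers that fell were 11, 0, 4, 4 and 1 in the same order. C3, the central component of complement, had 5413, 5442 and 4723 CPM in input and 947, 966 and 944 CPM in IP (log2 difference -2.90 ± 0.23 (SE), adjusted p = 0.000243, edgeR). F2, prothrombin, had 2011, 1914 and 1995 CPM in input against 502, 464 and 576 CPM in IP. The IP libraries of both genes lay close together and far below input. Cps1, which starts the urea cycle, had 1499, 1869 and 2252 CPM in input against 114, 394 and 510.1 CPM in IP and fell with the replicates far apart in IP (-2.96 ± 0.47 (SE)). Slc10a1, the transporter that takes up bile acids from blood, had 675, 612 and 951 CPM in input against 50.3, 84.3 and 113 CPM in IP (-3.66 ± 0.34 (SE)). Cyp7a1, the rate-limiting enzyme of bile acid synthesis, had 92.7, 210.3 and 161 CPM in input against 27.3, 50.2 and 65.6 CPM in IP. Cpt2, an enzyme of fatty acid import into mitochondria, dropped out of IP 1, which had 3 reads where IP 2 and IP 3 had 3258 and 2150, the log2 difference was -0.94 ± 1.26 (SE), and the gene did not pass (adjusted p = 0.791). In the 3 Tru70 IP libraries Cpt2 had 119, 109 and 111 CPM. Pon1, a plasma esterase, and Lect2, a hepatocyte secreted factor, fell by 3.76 and 3.84 on the log2 scale. In IP, Pon1 had 13.8, 182 and 90.8 CPM and Lect2 5.95, 7.17 and 39.1 CPM. In both genes 1 IP library stood far from the others or from one of them, IP 1 below for Pon1 and IP 3 above for Lect2. Of the other protein-coding genes with the largest falls and at least 10 reads in all 6 libraries, C8a, a chain of the membrane attack complex, fell by 3.90, the plasma protease inhibitor Pzp by 3.67, the glucuronosyltransferase Ugt2b1 by 3.65 and the aldo-keto reductase Akr1c19 by 4.07 on the log2 scale.

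The mRNAs of mitochondrial DNA showed the largest falls among genes detected on both sides. Of 13 such genes 7 were tested and all 7 fell (5 without replicate 3), with a median log2 difference of -4.49. Mt-Nd5, a subunit of complex I, had 2729, 3335 and 3929 CPM in input and 50.1, 72.9 and 100.4 CPM in IP (log2 difference -5.96 ± 0.33 (SE), adjusted p = 8.39e-05; without replicate 3 -6.06, adjusted p = 0.0237, edgeR). Mt-Nd2, of the same complex, had 3571, 4400.1 and 4494 CPM in input against 249, 139 and 132 CPM in IP. Mt-Co1, of complex IV, had 12972, 14904 and 15816 CPM in input against 544, 926 and 929 CPM in IP. The IP libraries of these 3 genes were all many times below the lowest input library. Mt-Nd1 fell least, by 1.52 on the log2 scale, from 3432, 4297 and 4871 CPM to 1798, 2429.6 and 1812 CPM, and was not called without replicate 3 (adjusted p = 0.089). These mRNAs are translated by mitochondrial ribosomes, which hold no Rpl22. The other 6 genes of the list had at most 3 reads in any NEB library.

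Of 16 markers of sinusoidal endothelium, all tested, 1 rose and 1 fell, shares near the 5.82% and 5.34% of all tested genes and thus no result about these cells. Cdh5, the VE-cadherin of endothelial junctions, had 23.1, 21.4 and 10.6 CPM in input and 223, 314 and 279 CPM in IP (log2 difference 3.42 ± 0.39 (SE); without replicate 3 3.15, adjusted p = 0.0246, edgeR). F8, coagulation factor VIII, had 210, 207 and 391 reads in input and 0, 0 and 1 in IP, just past the threshold (adjusted p = 0.0499), and was not called without replicate 3 (adjusted p = 0.155), with the replicate number as a block (0.15) or in any fit without 1 library. The Tru70 libraries had 7.40, 6.83 and 4.92 CPM of F8 in input and 5.91, 0.671 and 1.96 CPM in IP, and the gene did not pass there (adjusted p = 0.205, edgeR). Stab2, a scavenger receptor of these cells, had 43.1, 35.8 and 30.1 CPM in input and 157, 78.7 and 114 CPM in IP with no overlap, yet did not pass (adjusted p = 0.0942). Of 10 stellate cell markers 1 fell (2 with the replicate number as a block), the matrix proteoglycan Dcn, with 159.6, 159 and 159 CPM in input against 64.5, 11.1 and 41.4 CPM in IP, and 0 were called without replicate 3. In Tru70, 8 of 16 endothelial markers fell and 1 rose, and 8 of 10 stellate markers fell, beside 16.7% of all genes that fell there and 18.1% that rose. Of 6 bile duct markers 1 was tested and 0 were called.

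**Figure D3:**
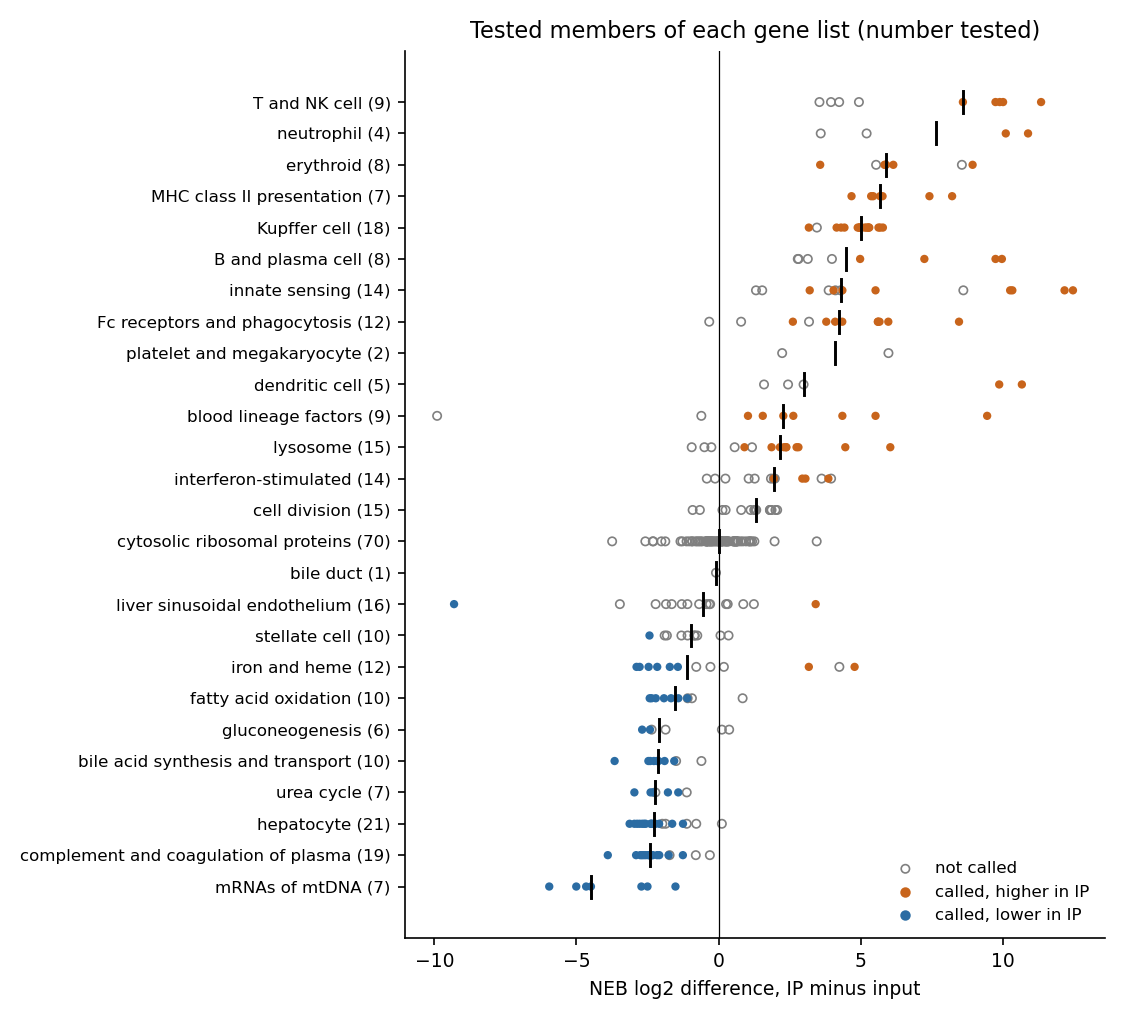
Log2 difference (IP minus input) in the NEB libraries of every tested member of the 26 gene lists, one circle a gene, filled where called (orange higher, blue lower in IP), with a bar at the list's median. The medians run from -4.49 for mRNAs of mtDNA to 8.60 for T and NK cells, a list with several members near 0 reads in input (7.06 with the gene that has no input read at its bound).

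Of the genes called with the lower fraction near 0, 99 were higher and 8 lower in IP. Such a gene passes the filter only through the fraction where it is high, so these numbers describe the class and support nothing. With the replicate number as a block, 41 of the 99 and 0 of the 8 were called. Of the 99 genes, 22 had 0 reads in all 3 input libraries, and 16 of these 22 had reads in all 3 Tru70 input libraries and 19 in all 3 SMTseq4 input libraries, made with SMART-Seq v4 from 4 ng of the RNA. The median CPM of the 99 genes was 0.0149 in NEB input and 0.741 in Tru70 input, whereas their median in IP was 28.5 in NEB and 24.7 in Tru70. Of the 99, 94 rose in Tru70, with a median log2 difference of 4.74. The NEB median of 9.94 depends on the prior count and does not measure a larger change. Cx3cr1, the fractalkine receptor of monocytes and macrophages, was the gene of this class with the highest mean CPM in IP: 2, 3 and 0 reads in input and 229.6, 173 and 49.3 CPM in IP. In Tru70 it had 2.87, 1.89 and 1.28 CPM in input and 93.4, 93.1 and 53.5 CPM in IP, so the IP levels of the kits overlapped and the input levels did not. Plcg2, a phospholipase of immune receptor signalling, had 0 reads in NEB input and 35.6, 103 and 65.0 CPM in IP, and 0.969, 0.917 and 2.40 CPM in Tru70 input. Itgb7, an integrin of leukocytes, and Tbc1d9 and Snx20, genes of membrane traffic, had at most 3 reads in an input library. In IP, Itgb7 had 62.8, 82.7 and 106 CPM, Tbc1d9 93.1, 69.8 and 98.6 CPM and Snx20 14.2, 97.8 and 80.9 CPM.

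On the other side, Insc had 435, 267 and 189 reads in input and 0 in the 3 IP libraries, while the Tru70 IP libraries had 3.08, 5.44 and 2.12 CPM. Ces2c, a carboxylesterase, had 11.3, 19.8 and 21.9 CPM in input and 1 read in all of IP, and Pcsk5, a proprotein convertase, 15.3, 38.1 and 5.45 CPM and 1 read. Ugt1a6b, a glucuronosyltransferase that shares exons with its neighbours, had 1 read in IP, and its counts are uncertain for that reason. Gm20056, a processed pseudogene whose reads may be shared with its parent gene, had 684, 428 and 222 reads in input and 0, 2 and 3 in IP. Of these 8 genes 5 fell in Tru70, with a median log2 difference of -2.66. The NEB median of -9.93 is likewise no measure of size. In NEB, 0 of the 8 were called without replicate 3 or with the replicate number as a block.

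Genes with at least 1 read numbered 13543, 12464 and 11419 in the 3 input libraries and 11059, 12165 and 14331 in the 3 IP libraries. The exchange of replicate 3 was read from a table of this measure, so these numbers are a description by fraction, with no test. Tru70 had 15957, 15577 and 16082 genes in input and 14430, 15213 and 15680 in IP. All 6 NEB libraries lay below all 6 Tru70 libraries, whichever fraction they are given, although with all libraries drawn down to the smallest total the IP libraries of the 2 kits overlapped.

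Dropout genes, present in the other libraries of the fraction and absent from one, numbered 1034, 1651 and 2238 in the NEB input libraries and 3636, 2692 and 601 in the IP libraries, also given with no test. IP 3, the library labelled input, had the fewest and IP 1 the most. In Tru70 the numbers were 82, 214 and 153 in input and 1023, 594 and 471 in IP, and for input they did not overlap with those of NEB. The biological coefficient of variation that edgeR estimated was 113.3% in NEB and 57.2% in Tru70. In total 5272 genes dropped out of at least 1 IP library and 3605 out of at least 1 input library, and the filter on low counts had removed 1825 and 1286 of these before the test. Of the genes that dropped out of an input library 41 were called, all with IP as the higher fraction, and of those that dropped out of an IP library 1 was called, with input as the higher fraction.

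Some genes were read in 2 libraries of a fraction only. In 355 genes the input libraries had at most 3 reads each, 2 IP libraries had more than 3 and the third IP library dropped out. None of the 355 passed the filter, which their definition fixes, since no gene with more than 3 reads in only 2 libraries was tested. The missing library was IP 1 in 240, IP 2 in 96 and IP 3 in 19 of them. Tru70 tested 288 of these genes, of which 121 rose and 1 fell, with a median log2 difference of 2.92, beside 18.1% of all genes that rose in Tru70 and 16.7% that fell. The mirror image, 260 genes with reads in 2 input libraries and at most 3 in each IP library, had 186 tested in Tru70, of which 23 fell and 1 rose, with a median of -1.15, a smaller share than the 16.7% over all genes. A few genes of the first set are named here, chosen after their values were seen. Btk, the kinase of B cell receptor signalling that myeloid cells also hold, had 1, 3 and 0 reads in input and 0, 2070 and 825 in IP, and in Tru70 1.74, 2.07 and 0.405 CPM in input and 38.0, 52.7 and 54.0 CPM in IP. Cxcr4, the receptor of the chemokine CXCL12, had 3, 1943 and 178 reads in IP, and in Tru70 IP 11.4, 42.3 and 28.0 CPM. Flt3, a receptor kinase of dendritic cell development, had 0, 1250 and 338 reads in IP, and in Tru70 IP 11.3, 22.4 and 25.1 CPM. For Btk, Cxcr4 and Flt3 the Tru70 fractions did not overlap. Other genes of the set were low in Tru70. Nsg2 had 0, 1054 and 200 reads in NEB IP but 1.04, 2.75 and 3.50 CPM in Tru70 IP. Lingo4 had 587, 163 and 0 reads in NEB IP but 1.47, 0 and 0.642 CPM in Tru70 IP, which overlapped with Tru70 input.

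How often a gene went unseen depended on its level. Of the genes at 1 to 3 CPM in the Tru70 library of the same fraction and number, 35.0% (32.9 to 37.0), 50.3% (48.1 to 52.4) and 59.2% (57.0 to 61.3) had 0 reads in NEB input 1, 2 and 3, and 68.5% (66.3 to 70.7), 66.2% (64.0 to 68.4) and 45.03% (42.8 to 47.3) in IP 1, 2 and 3 (95% Wilson intervals, which cover counting error only, since amplified reads are not independent molecules). The same genes had 0 reads in 2.22 to 3.70% of cases in SMTseq4 input and 5.21 to 7.25% in SMTseq4 IP, libraries that were sequenced at another centre. At 10 to 30 CPM the shares fell to 0.55 to 4.50% in NEB input and to 12.8% (11.8 to 14.0), 8.18% (7.34 to 9.11) and 0.920% (0.660 to 1.28) in NEB IP. At 30 to 100 CPM no NEB library lacked more than 1.18% of the genes. IP 1, with the smallest total of counts, lacked more genes at 3 to 10 CPM than any other library, 44.1% (42.2 to 45.9), and IP 3 lacked 11.7% (10.6 to 13.01). The part of depth and of the kit in these shares was not tested.

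**Figure D4:**
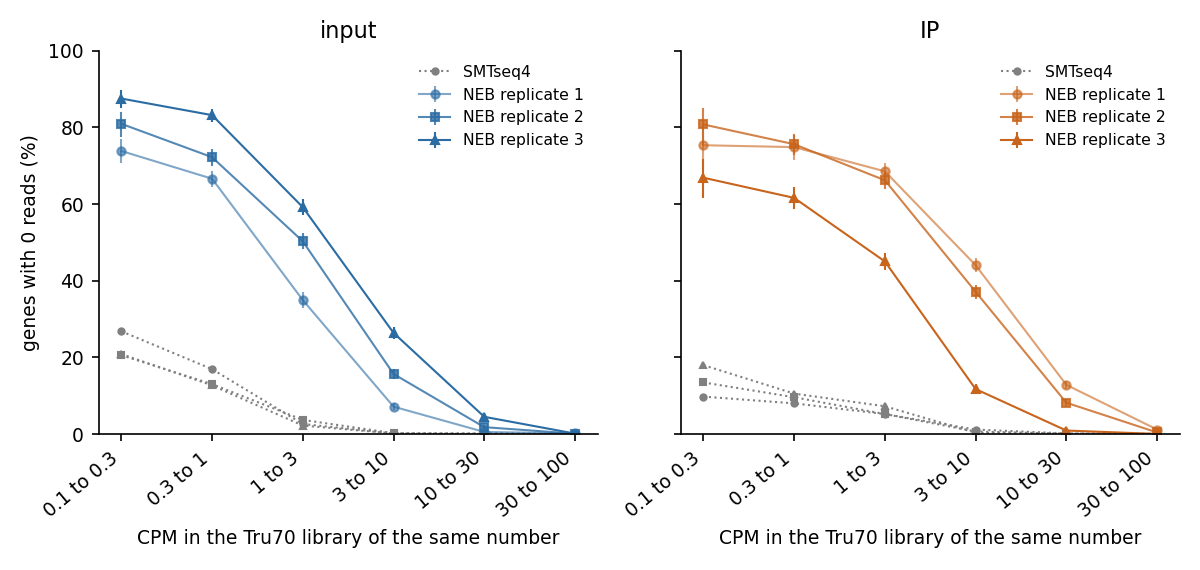
Share of genes with 0 reads in each NEB library (coloured, with 95% Wilson intervals) and in each SMTseq4 library (grey, dotted) against the CPM of the gene in the Tru70 library of the same fraction and number, in 6 bins. At 1 to 3 CPM the NEB shares lie between 35.0% and 68.5%.

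Large differences that were not called were common. Of 557 genes with a log2 difference of at least 4, 265 were called and 292 were not, and of 180 genes at -4 or below 17 were called and 163 were not. A library of the higher fraction had dropped out in 33 of the 292 genes and 19 of the 163, that is 11.3% and 11.7%. At a limit of 2 the shares were 255 of 1067 and 220 of 904, or 23.9% and 24.3%. At a limit of 6 they were 0 of 92 and 0 of 74. For comparison, 3447 of all 12099 tested genes had a dropout in an IP library and 2319 in an input library. Of the 292 genes not called, Tru70 tested 282, of which 209 rose and 0 fell. Of the 163 it tested 153, of which 44 fell and 0 rose. Over all genes tested in Tru70, 18.1% rose and 16.7% fell.

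The IP change was last set beside that of Tru70, made with more of the RNA from the same 3 mice, which the authors divided among the kits. Tru70 is thus a technical repeat and not another set of animals. The main test of the difference took its libraries as independent of those of NEB. Tru70 called 2665 of 14707 tested genes higher in IP (18.1%) and 2458 lower (16.7%). Of the 517 NEB genes detected on both sides that rose, 483 rose in Tru70 and 0 fell, with median log2 differences of 2.53 in NEB and 2.10 in Tru70. Of the 634 that fell, 629 fell in Tru70 and 0 rose, with medians of -2.04 and -2.01. Clec4f differed by 5.21 in NEB and 5.37 in Tru70, Alb by -3.13 and -3.02, and mt-Nd5 by -5.96 and -5.90. A test of the difference between the kits across 15346 genes called 1 gene (0.00652%; 2, Hk1 and Cx3cr1, with the replicate number as a block), with 982 at an unadjusted p under 0.05. That gene was Hk1, a hexokinase, with 0 reads in NEB input, 46.9, 60.7 and 39.4 CPM in NEB IP, 5.35, 7.87 and 7.45 CPM in Tru70 input and 24.6, 53.2 and 38.5 CPM in Tru70 IP. In Tru70 it rose by 2.04 on the log2 scale. For the other genes near 0 in NEB input the difference from Tru70 did not pass, and a p that misses the threshold does not show that the changes are alike.

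**Figure D5:**
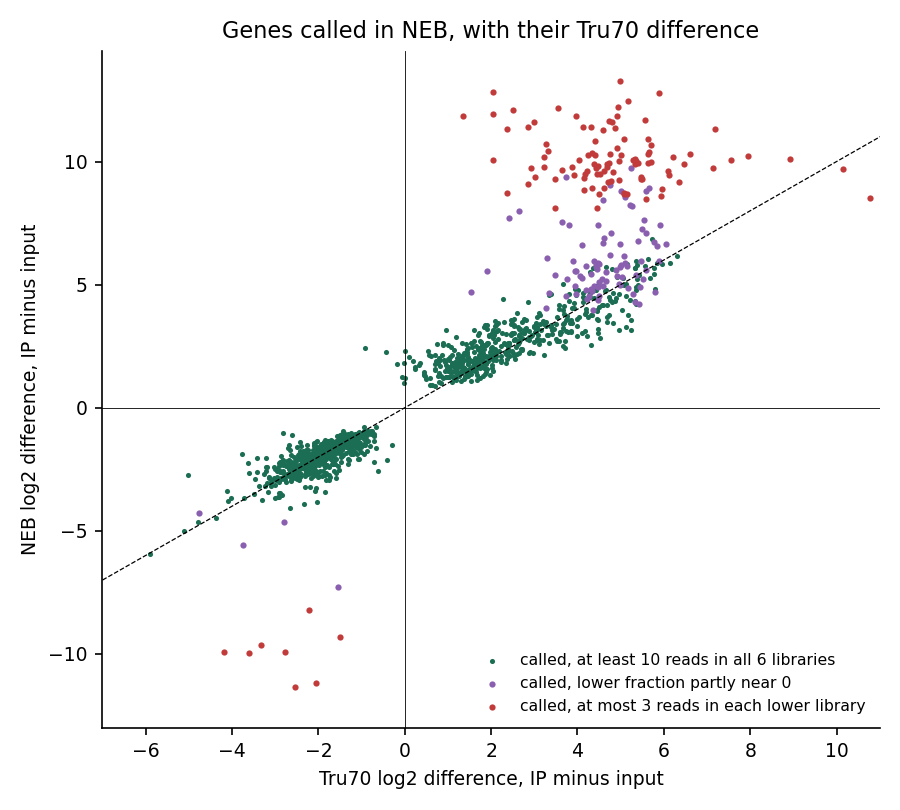
Log2 difference (IP minus input) in NEB against that in Tru70 for the 1350 genes called in NEB, one point a gene, coloured by class, with the line of equality dashed. Genes detected on both sides lie along the line, and most genes with the lower fraction near 0 lie beyond it, at a median of 9.94 in NEB against 4.74 in Tru70 for those that rose. The NEB values of genes near 0 depend on the prior count of the fit and are no measure of size.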

How the data were processed

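Counts per gene in 6 NEB, 6 Tru70 and 6 SMTseq4 libraries were analysed. As the authors describe, adapters were removed, reads were trimmed, aligned with TopHat to GRCm38 and assigned to the exons of Ensembl genes, and the counts of each library were deposited without normalization, one library a file. The authors did not analyse strand, so overlapping genes on opposite strands cannot be told apart. Reads assigned to no gene were left out of library totals. The authors also deposited RPKM values, which served for an alternative only. Gene names and positions came from GENCODE vM21 (47310 of 47729 genes) and promoter sequence from RefSeq (GRCm38.p6).

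IP was tested against input with edgeR 4.0.16 (TMM scaling, filterByExpr, quasi-likelihood test), with an adjusted p threshold of 0.05. Each test used the libraries of its own kit, and the difference between kits was an interaction term over both. A called gene was divided by its reads: at least 10 in all 6 libraries, at most 3 in each library of the lower fraction, or neither. Alternatives were run with DESeq2 1.42.0, limma 3.58.1 (voom with sample weights, and log2(RPKM + 0.1)), other scalings and filters, the labelled fractions, libraries left out and a replicate block. The tests were tried on simulated counts.

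The study took input and IP from the same livers, and the deposited files give both fractions of a replicate number 1 animal code, so the numbers pair the fractions. Deviations of same-numbered libraries from the group means correlated at -0.0196, 0.0257 and -0.0259 across genes. A fit with the number as a block is given where it changed a call.

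Total counts were 15122257 to 27323849 in NEB libraries, so 3 counts stand for 0.110 to 0.198 CPM. Genes were named by this rule: Gfi1, Rpl22 and Gapdh, members of the lists, the 12 protein-coding genes with the largest difference in each direction among those with at least 10 reads in every library, the 5 genes with the highest mean CPM in each direction among those near 0 in the lower fraction, and genes past the test between kits. A part of the rule for called genes with a dropout in the higher fraction found none, some genes that the rule names are not reported here, and genes named beyond the rule are said to be so. The lists and the comparison were chosen with earlier results of these data known. The other 24 libraries of the series were not used here.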

Additional observations from a re-analysis of the deposited data

Results flagged for a closer look

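Hk1, the gene of a hexokinase, was the only one of 15346 genes for which the IP change differed between NEB and Tru70 by a test of the difference itself. The difference of the log2 changes, NEB minus Tru70, was 10.99 ± 1.14 (SE; adjusted p = 0.0129, edgeR interaction term). Input had 0 reads in all 3 NEB libraries, so the fitted size depends on the prior count and is no measure of size. Levels in IP overlapped, at 46.9, 60.7 and 39.4 CPM in NEB and 24.6, 53.2 and 38.5 CPM in Tru70, and levels in input did not, at 0 and 5.35, 7.87 and 7.45 CPM. Without replicate 1 or without replicate 2 no gene passed the test of the difference.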

How the results depend on the processing

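The count of 1350 called genes (704 higher and 646 lower in IP) went to 2598 with DESeq2 (1515 and 1083), of which 222 beyond the 1350 had a dropout in the higher fraction, and to 2107 with voom and sample weights (1142 higher). With the fractions as labelled it went to 0, as did all 6 counts by class, the list members called and the 1 gene past the test between kits, and the number of detected genes in IP minus input turned to -1898.3 and that of NEB input minus Tru70 input moved to -2426.0. With the fractions as labelled and a replicate block, an alternative chosen after seeing the data, 0 genes and 0 list members were called. Gzma turned to -0.093 on the log2 scale under the labelled fractions. With at least 100 predicted reads the excess of dropout genes in NEB input over Tru70 input was 584.7. Leaving out a replicate (both fractions) gave 431 to 704 calls, 215 to 358 higher and 216 to 346 lower, 75 to 110 list members, and -1391.5 to 1306.5 for the difference in detected genes, of which the lowest was without replicate 3. Leaving out 1 library gave 936 to 1355 calls (626 higher and 729 lower without IP replicate 1, with 145 list members), with 437 higher without IP replicate 3, 464 without IP replicate 2, 395 lower without input replicate 1 and 430 without input replicate 2. Upper quartile scaling gave 607 higher and 762 lower. In Tru70, leaving out a replicate gave 2877 to 4533 calls (1561 to 2467 higher, 1316 to 2066 lower). The test between kits called 12 genes with no filter and 0 to 4 without a replicate. Over the other scalings and filters the NEB count was 1356 to 1801, within 1.5 times. Among 103 genes followed across the settings, 38 calls were lost without replicate 3, 29 without replicate 1 and 39 without replicate 2. No called gene changed sign in these fits. The calls lost without replicate 3 included those of Mertk, Itgam, Runx1, Pax5, Snx20, Hamp, Irf7, Cps1, Cyp7a1 and Pon1. The cause of these shifts was not tested.

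With the replicate number as a block, 1282 genes were called in NEB (613 higher, 669 lower) and 2 in the test between kits. Gzma was not called with the block. Beyond this and the changes given beside the results, the block changed no call of a gene named in the text. Depth limits the statements on genes at or below 3 reads.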
